A study of Danio rerio with 12 samples.

Results

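Ribosomal protein genes encode the protein components of the cytosolic ribosome, and they were followed here across 12 RNA-seq libraries of whole wild-type zebrafish embryos. A gene entered the set where its symbol began with rpl or rps followed by a digit or the letter p, with the rps6k kinase genes left out. The rule took 82 rows of the 31901 genes listed. By symbol, 49 of these belonged to the large subunit (rpl) and 32 to the small subunit (rps), and 1 row, rps19bp1, named an RPS19-binding protein that is not part of the ribosome. The embryos were exposed from 6 to 24 hours post fertilisation (hpf) to 0.1% DMSO, the vehicle, to 75 µM GW9662, which blocks the nuclear receptor PPARγ by binding it covalently, or to 25 µM rosiglitazone, an agonist of the same receptor, with 4 libraries in each group. Groups follow the library titles, since the tag for treatment reads TBBPA where the title says GW9662, and DMSO where it says rosiglitazone. A tag named batch gives each library an hour of its own, from 24 to 27 hpf for DMSO, 28 to 31 hpf for GW9662 and 32 to 35 hpf for rosiglitazone. If these hours are the age at sampling, age and treatment cannot be told apart in any comparison below. A percentage of DMSO is recorded for the DMSO libraries alone, and for neither GW9662 nor rosiglitazone. Nothing in the labels says which vehicle the rosiglitazone embryos received, how many embryos entered a library or whether replicates came from separate clutches. The p-values therefore measure the spread between these libraries, which may be technical.

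A ribosome joins a small subunit, which reads the mRNA, to a large subunit, which forms peptide bonds, and each protein is needed in about the same number of copies. In vertebrates the mRNAs of ribosomal proteins begin with a run of pyrimidines, and their translation, more than their abundance, is controlled by growth signalling through mTORC1. Many zebrafish ribosomal protein genes host small nucleolar RNAs (snoRNAs), which guide the modification of ribosomal RNA, in their introns, and lowered dose of single ribosomal proteins impairs blood formation in fish and people.

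Some rows carried symbols that did not match their identifiers. A reference list of gene names gave the same symbol, in any letter case, for 73 of the 82 identifiers, and gave names of other genes for 2. The row ENSDARG00000101794, listed as rpl26 (chromosome 14, 52565660 to 52576034, forward strand), is named atp6v0e1 there, a subunit of the proton pump of acid vesicles. The row ENSDARG00000076360, listed as rpl37 (chromosome 2, 49860722 to 49871576, forward strand), is named COA1, an assembly factor of cytochrome c oxidase. Both are called below by symbol and reference name together, and both stay in the counts, sums and medians of the large subunit. The other row listed as rpl37, ENSDARG00000034291, was at 486 FPKM (fragments per kilobase of gene length, scaled to the library's total) in DMSO. Conversely, 4 rows outside the rule were ribosomal protein genes by the reference list, among them rps20 (listed as FO704736.1) at 3419 ± 95.4 FPKM in DMSO (SD, n = 4). No nucleotide or protein sequence of these genes was used here.

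The libraries held 12.8 M to 22.7 M fragments assigned to genes. Markers of muscle, blood, hatching gland, neurons, epidermis, lens, notochord and vessels were detected, as the label whole embryo requires, although the hatching gland marker cd63 was listed at 0 and krt5 at 0.691 FPKM in DMSO. Of 20 marker rows tested, 3 were higher and 9 lower with GW9662 than with DMSO, and 0 higher and 6 lower with rosiglitazone. That is 60% and 30% called, where 36% and 17% of all genes tested were. The differences of these rows ran from -3.80 to 0.68 on the log2 scale with GW9662 and from -2.21 to 0.086 with rosiglitazone. Over all 23 marker rows the summed level ran from 7676 to 8293 FPKM in DMSO, 6331 to 6903 with GW9662 and 6685 to 7705 with rosiglitazone. The parvalbumin gene pvalb1 of fast muscle fell from 534 to 42.3 FPKM with GW9662 and to 302 FPKM with rosiglitazone, and the lens crystallin gene cryba1b fell from 34.7 to 3.36 and 14.6 FPKM. In whole embryos, fewer cells of a type and less RNA per cell cannot be told apart, and the part of these markers in the results below was not tested.

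In DMSO embryos the ribosomal protein genes were among the most abundant mRNAs. Their median level was 739 FPKM, with 746 FPKM for the large and 708 FPKM for the small subunit, and they supplied 36 of the 100 and 8 of the 20 genes with the highest mean FPKM. There were 29 members at 1000 FPKM or more, 38 between 100 and 1000, 8 between 10 and 100 and 7 below 10. The highest was rplp0, the base protein of the stalk that recruits translation factors, at 4284 ± 104 FPKM (SD, n = 4). Next came rps14 at 3024 ± 74.8, rps2 at 2965 ± 97.5, rps7 at 2742 ± 94.7 and rpl6 at 2698 ± 77.5 FPKM. Neighbours in this order lay close together. The gene rps14 ran from 2934 to 3086 FPKM over the DMSO libraries and rps2 from 2824 to 3046 FPKM, so their order is within the spread of libraries, whereas rplp0 stayed above both in each of the 4.

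At the low end, proteins that a ribosome needs in the same number as rplp0 were listed at levels far below it. The gene for rpl10, which completes the large subunit late in assembly, was listed at 10.8, 6.01, 5.68 and 7.92 FPKM in the DMSO libraries. Rows with under 1 FPKM in DMSO were rps8b at 1.29, 0.602, 1.03 and 0.798 FPKM, rpl9 at 0.694, 0.492, 0.557 and 0.851 FPKM, the row ENSDARG00000102317 listed as rpl26 at 0.489, 0.637, 0.129 and 0 FPKM and rpl32 at 0.112, 0, 0.443 and 0 FPKM. These 4 rows missed the filter of at least 1 FPKM in at least 4 libraries and were not tested, which left 78. They rested on few fragments, with 76, 83, 12 and 4 fragments over the 4 DMSO libraries. Their values were as low with GW9662, where rpl9 was at 0.998, 1.01, 0.385 and 0.490 FPKM, the rpl26 row at 0.101, 0.631, 0.147 and 0.423 FPKM and rpl32 at 0, 0.120, 0.0841 and 0.363 FPKM. With rosiglitazone rpl9 was at 0.941, 0.926, 0.423 and 0.709 FPKM, the rpl26 row at 0.234, 0, 0 and 0 FPKM, and rpl32 was listed at 0 in the 4 libraries. The sources used here do not say how reads matching several near-identical copies were counted, and ribosomal protein genes have many processed copies. The rpl26 row also overlaps the row named atp6v0e1, and rpl9 overlaps rfc1, each on the same strand, where reads may have been left uncounted. A low listed level is therefore uncertain as a measure of the mRNA, and the part of these overlaps was not tested.

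**Figure D1:**
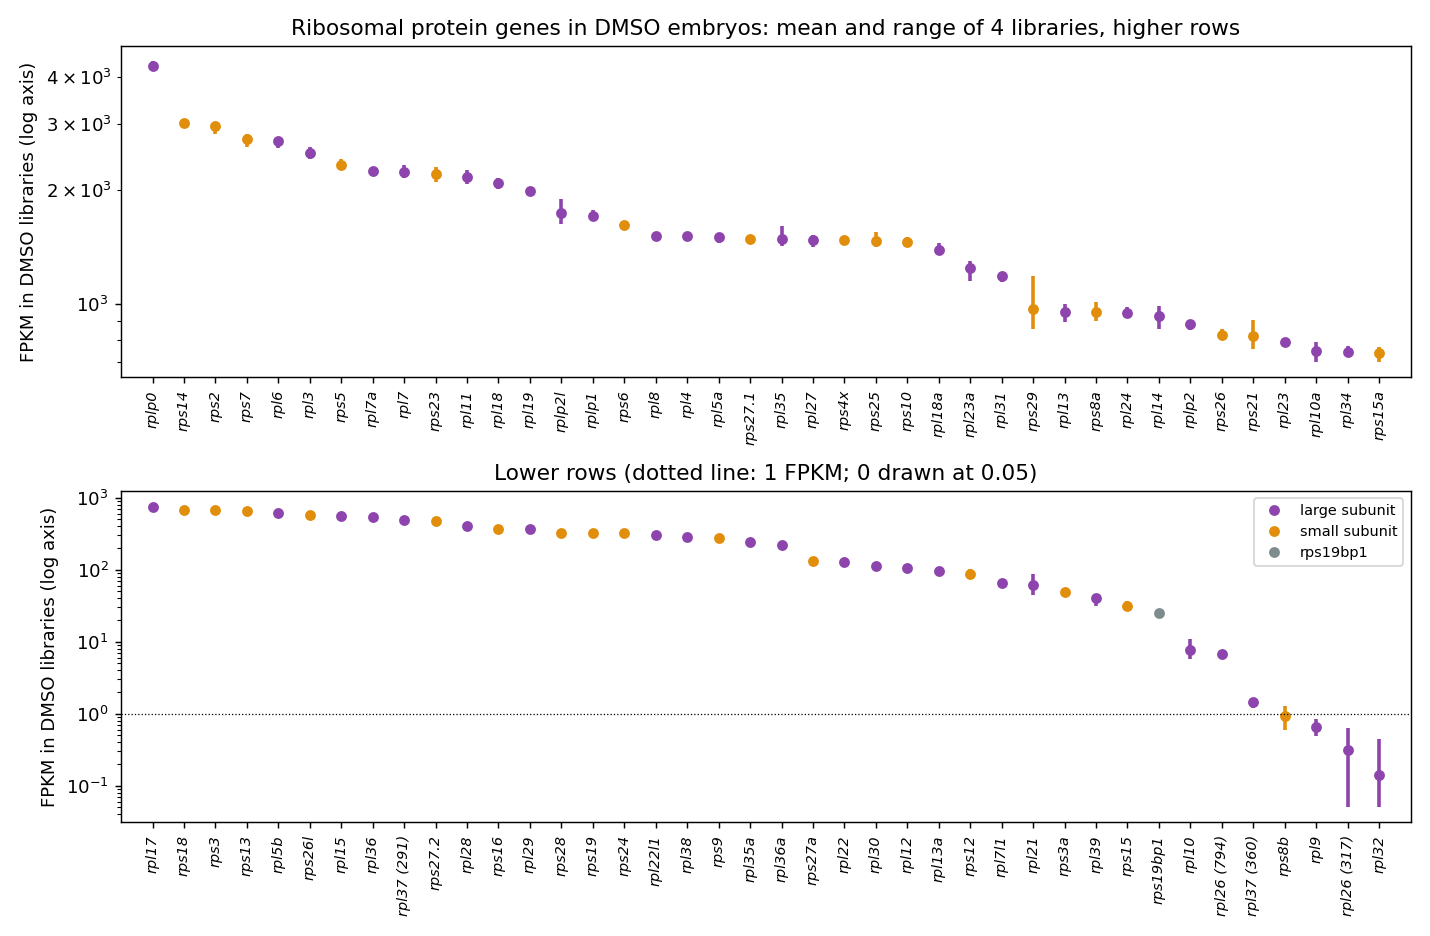
Level of 80 of the 82 rows in DMSO embryos on a log axis of FPKM, ordered by mean, with points for the mean and lines for the range of 4 libraries. Numbers in brackets are the last digits of identifiers that share a symbol; 65 of the rows drawn lie at 100 FPKM or more and 4 lie under the dotted line at 1 FPKM.

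Gene lengths in the file ran from 346 to 6136 bases with a median of 1236.5 bases, against 2339 bases over the 14433 genes tested. Over the 78 tested members, log2 FPKM in DMSO and log2 length had a Pearson correlation of -0.44, a description across genes, in which length enters both quantities since FPKM divides by it.

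Summed over members, the ribosomal protein genes took 9.53, 9.66, 9.48 and 9.58% of all fragments in the 4 DMSO libraries. The shares were 9.73, 10.1, 9.80 and 10.6% with GW9662 and 10.97, 9.64, 9.65 and 10.2% with rosiglitazone. Each GW9662 library lay above the highest DMSO library, while the rosiglitazone libraries overlapped DMSO, with 2 of 4 inside the DMSO range. As means these were 9.56 ± 0.0784%, 10.04 ± 0.374% and 10.1 ± 0.627% (SD, n = 4), so the spread between libraries was several times wider in both exposed groups than in DMSO.

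Rosiglitazone replicate 1 and, to a lesser extent, GW9662 replicate 4 stood apart from their groups. In these libraries the median member lay 0.21 and 0.11 above its group mean on the log2 scale, and 76 and 73 of the 78 members were above their own group mean. The rosiglitazone replicates 2 and 3 lay at -0.12 and -0.10, with 4 and 3 members above. The median over all genes tested moved far less, by 0.015 in rosiglitazone replicate 1 and 0.019 in GW9662 replicate 4. The 2 libraries also had the lowest ratio of the library size implied by the authors' FPKM to the sum of fragments, 0.957 and 0.968, where the others ran from 0.997 to 1.04; a low ratio raises every FPKM of a library. The part of this ratio in the shifts of members was not tested. Members moved together from library to library: the median SD between replicates was 0.117 on the log2 scale, and 0.0515 once the median member of each library was subtracted. With nothing subtracted, this SD was 0.138 over all genes tested and 0.0909 over the 548 other genes at 100 FPKM or more. The member value to set beside these 2 is 0.117, not 0.0515. The part of these libraries in each comparison is given beside it.

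**Figure D2:**
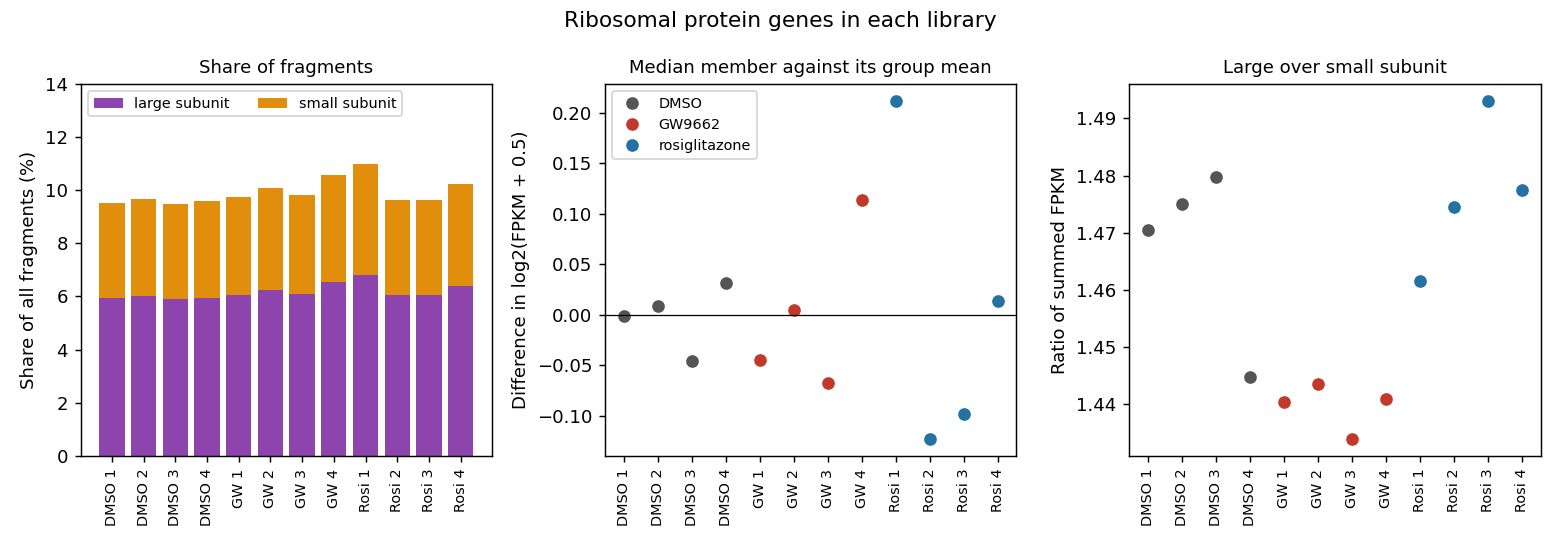
Left, share of fragments (%) taken by large and small subunit genes in each library. Middle, median difference of the 78 tested members from their group mean, in log2(FPKM + 0.5). Right, ratio of summed FPKM, large over small subunit, for rows of the symbol rule. Rosiglitazone replicate 1 is highest in the first and second panels, and the 4 GW9662 libraries lie lowest in the right panel.

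GW9662 shifted the ribosomal protein genes little as single genes. Of 78 tested, 2 were higher and 0 lower than in DMSO at an adjusted p under 0.05 (limma with a variance trend on log2(FPKM + 0.5), Benjamini-Hochberg over 14433 genes). The background was large: 36% of all genes tested were called, 18.9% higher and 17.1% lower. The estimates nevertheless lay on the same side, with 77 of 78 above 0 and a median difference of 0.12 on the log2 scale, a fold of 1.09, against 0.011 over all genes tested and -0.022 over the 548 other genes at 100 FPKM or more. Members share libraries and move together, so this count of signs is not 78 separate observations. For 75 of 78 the 95% interval lay within 1.5-fold in either direction, which held for 67.3% of all genes tested. It also held for 80.5% of the other genes at 100 FPKM or more. At an unadjusted p under 0.05 (limma) there were 18 of 78 members, all higher with GW9662, against 6471 of all 14433 genes tested. The count of signs depended on libraries and scale. Without GW9662 replicate 4, 66 of 78 estimates lay above 0 and the median difference was 0.085. In that fit 1 member was called, where 34.3% of all genes tested were. With equal medians of the genes tested in each library, 69 of 78 lay above 0. The median was then 0.089, against -0.023 over all genes tested.

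The 2 rows called were the one listed as rpl26 and rps23. The former, named atp6v0e1 in the reference list, read 6.58, 6.87, 6.93 and 6.65 FPKM in the DMSO libraries, 9.81, 9.19, 9.76 and 9.82 with GW9662 and 8.93, 5.91, 6.04 and 6.59 with rosiglitazone. The 4 GW9662 values lie above the 8 others, of which rosiglitazone replicate 1 is the highest. Its difference was 0.48 ± 0.10 (SE), adjusted p = 0.0022 (limma, n = 4 a group), the largest of the set in a row that is not a ribosomal protein gene by that list, and it was called under each of 24 settings, which leave out the 2 scalings chosen after seeing the data. The gene for rps23, a protein of the decoding centre that checks the match of codon and anticodon (chromosome 11, 42556395 to 42561215, forward strand), read 2181, 2251, 2103 and 2314 FPKM in the DMSO libraries, 2490.5, 2609, 2525 and 2817 with GW9662 and 2796, 2102, 2104 and 2254 with rosiglitazone. Its GW9662 values were all above DMSO, and rosiglitazone replicate 1 lay among them. The rise was 0.24 ± 0.086 (SE), adjusted p = 0.046 (limma), just inside the threshold. It was called in 11 of the same 24 settings, and the call was lost without any single DMSO or GW9662 library and without rosiglitazone replicate 4.

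Just outside the threshold lay rplp0 at 0.18, adjusted p = 0.059, rps25 at 0.19, adjusted p = 0.060, rps29 at 0.31, adjusted p = 0.061 and rps18 at 0.20, adjusted p = 0.061 (limma). The gene for rps29, a small zinc-binding protein of the small subunit, had the second largest estimate, from 967 ± 147 to 1193 ± 154 FPKM (SD, n = 4). At the other end, rpl15 had -0.005 (95% interval -0.13 to 0.12) and rps3, a protein of the mRNA entry channel, 0.004 (95% interval -0.14 to 0.14). In 29 members the 4 GW9662 libraries lay wholly above the 4 DMSO libraries, where 19.4% of all genes tested did so, and in 0 members wholly below. These 29 were 15 large and 14 small subunit genes.

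The number of members called depended on the libraries in the fit and on how they were scaled. Leaving out rosiglitazone replicate 1, which enters this comparison through the shared estimate of the spread, gave the same median and 22 members higher, where 38.7% of all genes were called. Fitting the GW9662 and DMSO libraries alone gave the same median and 20 members higher, with 37.3% of all genes called. With quantile normalization the median was 0.10, and 30 members were higher and 2 lower, with 38.3% of all genes called. The gene rpl7 was then at -0.11, where its estimate with the FPKM as deposited was 0.014.

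**Figure D3:**
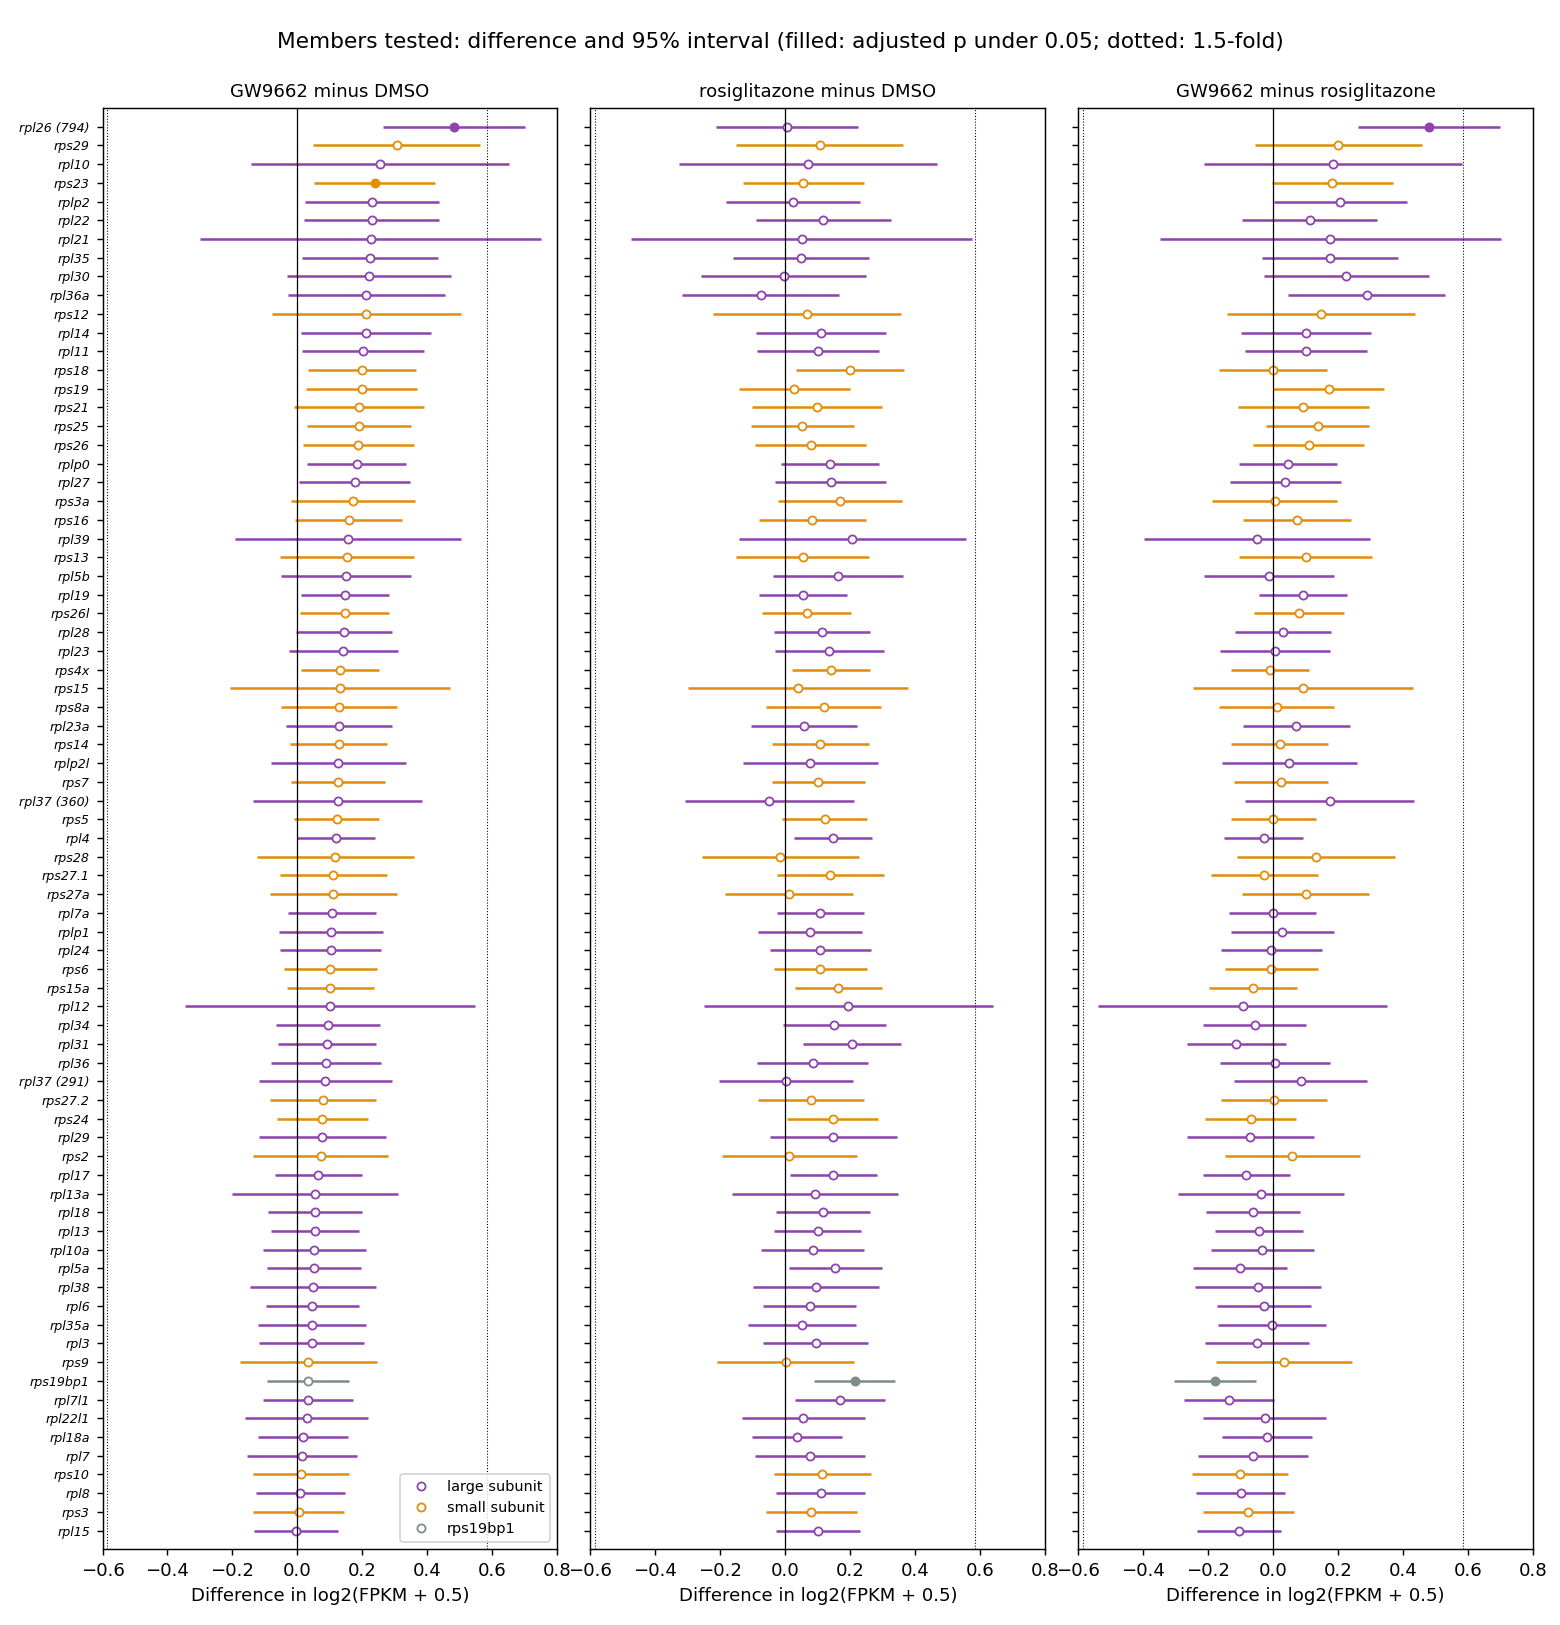
Difference in log2(FPKM + 0.5) and its 95% interval for 76 of the 78 members tested, in the 3 comparisons, ordered by the difference between GW9662 and DMSO, with the last digits of the identifier where rows share a symbol. Filled points have an adjusted p under 0.05 (limma); dotted lines mark 1.5-fold. Nearly all points of the left and middle panels lie to the right of 0, and few intervals leave the dotted lines.

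Rosiglitazone gave 1 member higher and 0 lower of 78, with 17% of all genes tested called, 9.29% higher and 7.68% lower. At an unadjusted p under 0.05 (limma) there were 10 of 78 members, all higher, against 4244 of all 14433 genes tested. The member called was rps19bp1 (chromosome 6, 264927 to 268818, forward strand), which is not a ribosomal protein gene. It read 25.8, 25.4, 24.9 and 24.4 FPKM in the DMSO libraries, 25.6, 26.6, 23.4 and 27.4 with GW9662 and 31.7, 27.09, 29.7 and 28.6 with rosiglitazone. The rosiglitazone values lay above the DMSO values without overlap, and the difference was 0.21 ± 0.058 (SE), adjusted p = 0.024 (limma). Without rosiglitazone replicate 1 it was 0.17, adjusted p = 0.053 and 0 members were called, with 17.3% of all genes called. The call of rps19bp1 was also lost without rosiglitazone replicate 3, DMSO replicate 3 or DMSO replicate 4, and it held in 20 of the 24 settings.

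The other members leaned upward most in rosiglitazone replicate 1 and less in replicate 4. The median member was at 9.906, 9.567, 9.609 and 9.714 on the log2 scale in the rosiglitazone libraries, and at 9.501 to 9.608 in DMSO. The median difference from DMSO was 0.10, with 74 of 78 estimates above 0 and a median of 0.001 over all genes tested, and it was 0.023 without rosiglitazone replicate 1. In 7 members the rosiglitazone libraries lay wholly above DMSO, against 10.9% of all genes tested: rpl31, rpl4, rpl5a, rplp0, rps18, rps4x and rps19bp1. After rps19bp1 the largest estimate among these was that of rpl31, a protein at the tunnel exit, at 0.20, adjusted p = 0.063 (limma), with 1200.4, 1181, 1144 and 1208 FPKM in DMSO and 1555, 1261, 1385 and 1272 FPKM with rosiglitazone. It was the highest in replicate 1 and next in replicate 3. For 77 of 78 members the 95% interval lay within 1.5-fold, which held for 77.9% of all genes tested. It also held for 92.9% of the other genes at 100 FPKM or more.

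Between the compounds, 1 member was higher and 1 lower with GW9662, against 30.5% of all genes tested, 16% higher and 14.5% lower. They were the atp6v0e1 row at 0.48 ± 0.10 (SE), adjusted p = 0.0030 and rps19bp1 at -0.18 ± 0.058 (SE), adjusted p = 0.032 (limma). The latter was called in 18 of the 24 settings, and not without replicate 1 or 3 of either compound. The median difference over members was 0.008, with 44 of 78 above 0, against 0.007 over all genes tested. In 1 member the GW9662 libraries lay wholly above rosiglitazone, and 15.4% of all genes tested did. Without rosiglitazone replicate 1 the median was 0.081 and 15 members were higher, with 29.4% of all genes called; the largest after the atp6v0e1 row were rpl36a at 0.38, adjusted p = 0.016, rpl30 at 0.34, adjusted p = 0.015 and rplp2 at 0.32, adjusted p = 0.00097 (limma). The row of rpl30 overlaps the gene rida on the same strand. With all libraries in the fit, rida was higher with GW9662 than with rosiglitazone by 0.86, adjusted p = 0.00012 (limma). The part of this overlap in the value of rpl30 was not tested. The compounds were given at different doses and share the DMSO group, and their differences from it stand side by side here as separate values.

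**Figure D4:**
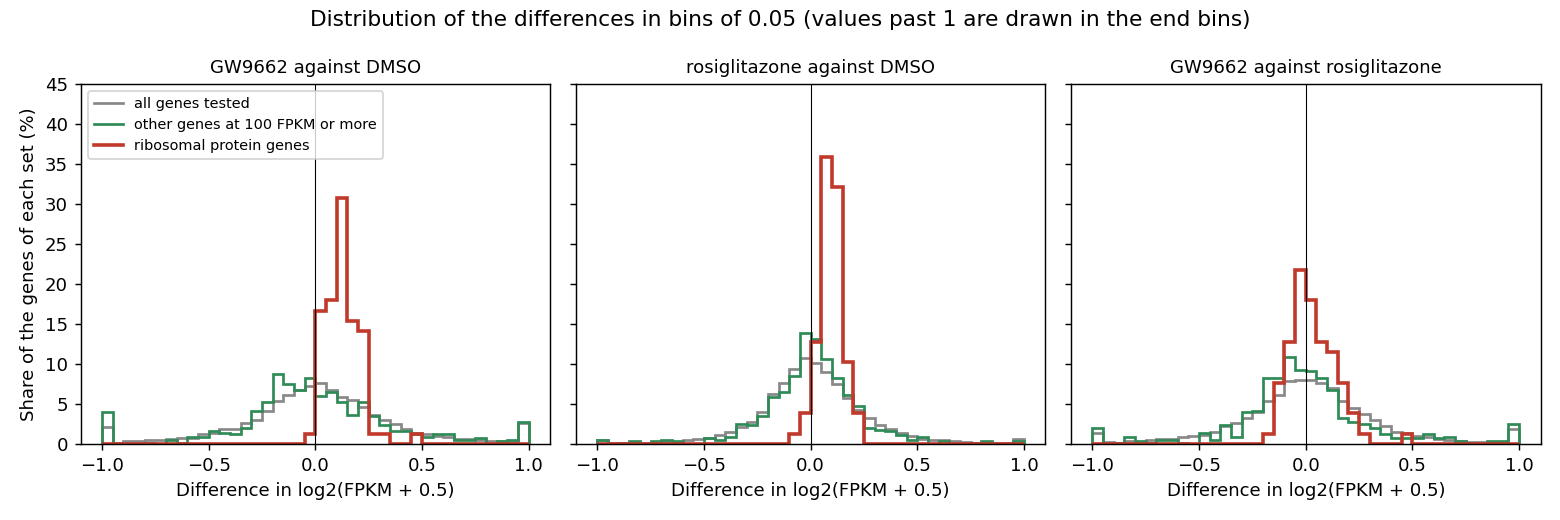
Share (%) of the genes of each set by their difference in log2(FPKM + 0.5), in bins of 0.05, for ribosomal protein genes, other genes at 100 FPKM or more and all genes tested. The ribosomal protein genes form a narrow peak, centred at 0.12, 0.10 and 0.008 from left to right.

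Large and small subunit genes were compared by their sums. These cover only rows of the symbol rule, so abundant genes outside it, such as rps20, are missing. The ratio is therefore not that of all large to all small subunit mRNAs. Summed FPKM of the large subunit genes over that of the small subunit genes was 1.47, 1.47, 1.48 and 1.44 in DMSO. It was 1.44, 1.44, 1.43 and 1.44 with GW9662 and 1.46, 1.47, 1.49 and 1.48 with rosiglitazone. The 4 GW9662 ratios lay below the 8 others, although DMSO replicate 4, at 1.445, was close to the highest GW9662 library, at 1.444, and rosiglitazone overlapped DMSO. A common scale of a library cancels in this ratio. The size of the shift was small, from 1.47 ± 0.0156 to 1.44 ± 0.00409 (SD, n = 4), and as a score over members it carries no p-value. Gene by gene, the median difference between GW9662 and DMSO was 0.10 over 46 large subunit genes and 0.13 over 31 small subunit genes. The corresponding medians were 0.10 and 0.088 for rosiglitazone against DMSO, and -0.005 and 0.059 for GW9662 against rosiglitazone. In each of these comparisons at most 1 row of each subunit was called, where 36%, 17% and 30.5% of all genes tested were. The large subunit row called was the atp6v0e1 row, in both GW9662 comparisons. Without the 2 rows of other reference names and rps19bp1, 1 of 75 members was called with GW9662 against DMSO, 0 with rosiglitazone and 0 between the compounds. The medians over those 75 were 0.12, 0.098 and 0.006.

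The stalk genes rplp0, rplp1, rplp2 and rplp2l encode the flexible arm that brings elongation factors to the ribosome. With GW9662 against DMSO 0 of 4 were called, where 36% of all genes tested were, and the median difference was 0.15. The gene for rplp0 (chromosome 5, 1950660 to 1963498, reverse strand) read 4262, 4413, 4301 and 4161 FPKM in the DMSO libraries, 4682, 4897, 4583 and 5312 with GW9662 and 4944, 4421, 4430.1 and 5079 with rosiglitazone. Its DMSO values lay below the 8 others, and the differences were 0.18, adjusted p = 0.059 with GW9662 and 0.14, adjusted p = 0.22 with rosiglitazone (limma). The gene for rplp1 had 1711 ± 58.8 FPKM in DMSO, 1839 ± 73.0 with GW9662 and 1812 ± 213 with rosiglitazone (SD, n = 4), with differences of 0.10, adjusted p = 0.31 and 0.076, adjusted p = 0.55 (limma).

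The 5S particle joins rpl5 and rpl11 to 5S ribosomal RNA and, when not built into a ribosome, binds the p53 regulator Mdm2. The gene for rpl11 (chromosome 19, 43780970 to 43786940, forward strand) read 2139, 2212, 2085 and 2264 FPKM in the DMSO libraries, 2407, 2542, 2387 and 2674 with GW9662 and 2839, 2120.1, 2117 and 2318 with rosiglitazone. Its 4 GW9662 values were above DMSO, while rosiglitazone was above it in replicates 1 and 4. The differences were 0.20, adjusted p = 0.087 and 0.10, adjusted p = 0.49 (limma). None of rpl11, rpl5a and rpl5b was called in any of the 3 comparisons, where 36%, 17% and 30.5% of all genes tested were. At an unadjusted p under 0.05 (limma) rpl11 passed with GW9662 and rpl5a with rosiglitazone, where 6471 and 4244 of all 14433 genes tested did.

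By place in the ribosome, 1 of 9 tested rows around the tunnel exit was called with GW9662, the atp6v0e1 row that carries the symbol rpl26, with a median of 0.15. Of 7 genes of the mRNA channel and decoding centre 1 was called, rps23, with a median of 0.12. Medians with rosiglitazone were 0.093 and 0.040, with 0 called. Among 21 tested genes whose human counterparts carry mutations in inherited anaemia, 1 was called with GW9662, again the atp6v0e1 row, and 0 with rosiglitazone. Of all genes tested, 36% were called with GW9662 against DMSO and 17% with rosiglitazone against DMSO. The human gene most often mutated there is RPS19, and its zebrafish counterpart rps19 had 323 ± 10.1 FPKM in DMSO, 371 ± 17.2 with GW9662 and 332 ± 47.7 with rosiglitazone (SD, n = 4). Its difference with GW9662 was 0.20, adjusted p = 0.068 (limma), with all 4 values above DMSO.

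Several members serve as reference genes for quantitative PCR in zebrafish. None of rplp0, rpl13a and rps18 passed the test in any comparison with the FPKM as deposited, where 36%, 17% and 30.5% of all genes tested did. Over the 24 settings, rplp0 was called higher with GW9662 than with DMSO in 8 and with rosiglitazone in 1, and rps18 in 6 and 4, while rpl13a was called in 0. The gene for rps18 (chromosome 19, 18617608 to 18627025, reverse strand) read 683, 683, 642 and 697 FPKM in the DMSO libraries, 732, 762, 761 and 852 with GW9662 and 911, 699, 724 and 787 with rosiglitazone. Both exposed groups lay wholly above DMSO, by 0.20 (95% interval 0.032 to 0.37) with GW9662 and 0.20 (95% interval 0.033 to 0.37) with rosiglitazone, adjusted p = 0.061 and 0.099 (limma). The gene for rpl13a (chromosome 17, 24615091 to 24618279, forward strand) read 102, 83.4, 103 and 88.0 FPKM in the DMSO libraries, 100, 106, 77.2 and 111 with GW9662 and 116, 84.9, 99.8 and 102 with rosiglitazone. Its groups overlapped, with differences of 0.055 (95% interval -0.20 to 0.31) and 0.093 (95% interval -0.16 to 0.35). The intervals of all 3 genes reach from values near or below 0 up to at most 0.37 on the log2 scale against DMSO.

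Members were also compared with each other, after each library was scaled to its median member, an alternative chosen after seeing the data. The scale equalised the median level over members, not their median difference, so an offset shared by many members remained. On it, 14 of 78 were higher with GW9662 than with DMSO and 0 lower, where 32.2% of all genes tested were called. They were 7 small subunit genes, among them rps18, rps19, rps23, rps25 and rps26, and 7 rows of the large subunit (rpl11, rpl14, rpl22, rpl27, rpl35, rplp2 and the atp6v0e1 row). After the latter row the largest was rps23 at 0.16, adjusted p = 0.00049, and another was rplp2 at 0.15, adjusted p = 0.0087 (limma). With rosiglitazone 0 were higher and 6 lower than in DMSO, with 21.3% of all genes called. They were rps2 at -0.12, adjusted p = 0.049, rps19 at -0.11, adjusted p = 0.050, rps25 at -0.085, adjusted p = 0.028, rpl19 at -0.084, adjusted p = 0.046, rps23 at -0.082, adjusted p = 0.048 and rpl23a at -0.080, adjusted p = 0.043 (limma). With the FPKM as deposited the differences of these 6 lay between 0.013 and 0.057, so all changed sign with a scale that lowers each gene alike; estimates above 0 went from 74 to 18 of 78. The scale moved the median over all genes tested to -0.068 with GW9662 and -0.14 with rosiglitazone, and the median over members to 0.044 and -0.042. Between the compounds 23 were higher with GW9662 and 0 lower, with 25.4% of all genes called. The median over members was then 0.067, with 63 of 78 estimates above 0, so these calls include that offset.

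Paralogues and -like copies gave 7 pairs, each compared as the ratio of its members within a library, where a common scale cancels. Over 21 exact permutation tests of 4 against 4 libraries, two-sided, the smallest p the design allows is 0.029; 5 tests reached it and 0 had an adjusted p under 0.05 over the 7 pairs of a comparison. At that smallest p, at least 5 of the 7 pairs would have to reach it together to pass, so this 0 was close to fixed by the design. The 2 clearest were rpl22 and rplp2.

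The protein rpl22 sits at the surface of the large subunit, and rpl22l1 is its paralogue. In DMSO the copy rpl22l1 had the higher FPKM, at 306 ± 19.2 against 128 ± 7.29 FPKM for rpl22 (SD, n = 4). This order rests on the listed gene lengths, 787 bases for rpl22l1 and 3692 bases for rpl22. In fragments over the 4 DMSO libraries rpl22 was the higher, with 31184 against 15914. FPKM of rpl22 over rpl22l1 was 0.407, 0.429, 0.420 and 0.417 in the DMSO libraries, 0.467, 0.468, 0.494 and 0.496 with GW9662 and 0.448, 0.440, 0.422 and 0.436 with rosiglitazone. The GW9662 ratios were above the 8 others, and rosiglitazone overlapped DMSO. The log2 ratio differed between GW9662 and DMSO by 0.20 (pooled SD 0.040, p = 0.029, adjusted p = 0.10, exact permutation test, n = 4 a group), between GW9662 and rosiglitazone by 0.14 (pooled SD 0.042, p = 0.029, adjusted p = 0.10, same test) and between rosiglitazone and DMSO by 0.061 (pooled SD 0.033, p = 0.057, adjusted p = 0.20, same test). As levels, rpl22 (chromosome 11, 29650011 to 29658396, reverse strand) read 125, 125, 122 and 139 FPKM in the DMSO libraries, 139, 148, 145 and 168 with GW9662 and 174, 126, 124 and 134 with rosiglitazone. Its copy rpl22l1 (chromosome 24, 26475182 to 26479841, reverse strand) read 307, 292, 291 and 332 FPKM in the DMSO libraries, 298, 316, 294 and 339 with GW9662 and 389, 287, 295 and 307 with rosiglitazone. Rosiglitazone replicate 1 was the highest library for both, and for rpl22l1 the GW9662 and DMSO ranges overlapped. The gene rpl22 had a difference of 0.23, adjusted p = 0.080 with GW9662, and rpl22l1 had 0.029, adjusted p = 0.83 (limma).

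The stalk pair showed a like shift in its ratio. The copy rplp2l (1743 ± 117 FPKM in DMSO) was more abundant than rplp2 (884 ± 22.9 FPKM), and rplp2 over rplp2l was 0.534, 0.505, 0.523 and 0.473 in the DMSO libraries, 0.563, 0.535, 0.554 and 0.535 with GW9662 and 0.505, 0.480, 0.479 and 0.494 with rosiglitazone. The GW9662 ratios were above the 8 others, by a narrow margin over DMSO replicate 1. The log2 ratio differed by 0.10 (pooled SD 0.060, p = 0.029, adjusted p = 0.10, exact permutation test, n = 4 a group) from DMSO and by 0.16 (pooled SD 0.036, p = 0.029, adjusted p = 0.10, same test) from rosiglitazone. The gene rplp2 (chromosome 6, 49508805 to 49510553, reverse strand) read 902, 883, 852 and 899.8 FPKM in the DMSO libraries, 977, 1026, 1024 and 1128 with GW9662 and 1140.02, 787, 821 and 886 with rosiglitazone. For rplp2l (chromosome 7, 12959846 to 12968701, reverse strand) the values were 1689, 1748, 1631 and 1902 FPKM in the DMSO libraries, 1737, 1917, 1850.1 and 2110.2 with GW9662 and 2255, 1637, 1712 and 1794 with rosiglitazone. Taken as single genes, the differences between GW9662 and DMSO were 0.23, adjusted p = 0.077 for rplp2 and 0.13, adjusted p = 0.34 for rplp2l (limma).

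For rps27.1 and rps27.2, which encode a zinc-finger protein of the small subunit, the ratio was 3.23, 3.17, 3.24 and 3.14 in the DMSO libraries, 3.10, 3.20, 3.42 and 3.35 with GW9662 and 3.29, 3.28, 3.38 and 3.36 with rosiglitazone. The 4 rosiglitazone ratios were above DMSO, by 0.060 (pooled SD 0.021, p = 0.029, adjusted p = 0.20, exact permutation test, n = 4 a group) on the log2 scale, a difference of a few percent. GW9662 overlapped both, at 0.031 (pooled SD 0.048, p = 0.40, adjusted p = 0.47, exact permutation test) against DMSO. The levels were 1489 ± 35.2 FPKM in DMSO, 1610.2 ± 110.3 with GW9662 and 1646 ± 188 with rosiglitazone (SD, n = 4) for rps27.1, and 466 ± 15.1 FPKM in DMSO, 494 ± 32.7 with GW9662 and 495 ± 59.5 with rosiglitazone (SD, n = 4) for rps27.2.

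The other 4 pairs gave no ratio at the smallest p. The copy rpl5a outweighed rpl5b, with a ratio of 2.61, 2.42, 2.42 and 2.26 in the DMSO libraries, 2.39, 2.51, 2.26 and 1.96 with GW9662 and 2.46, 2.42, 2.36 and 2.41 with rosiglitazone. GW9662 replicate 4 had the lowest ratio, with rpl5b at 844 FPKM where the other GW9662 libraries ran from 632 to 647 FPKM. The differences from DMSO were -0.10 (pooled SD 0.12, p = 0.34, adjusted p = 0.47) with GW9662 and -0.009 (pooled SD 0.062, p = 0.83, adjusted p = 0.91) with rosiglitazone by the same exact permutation test. As levels, rpl5a had 1503 ± 41.9 FPKM in DMSO, 1559 ± 82.6 with GW9662 and 1677 ± 153 with rosiglitazone (SD, n = 4), and rpl5b had 620.2 ± 45.4 FPKM in DMSO, 692 ± 102 with GW9662 and 694 ± 54.8 with rosiglitazone (SD, n = 4).

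For rps26, a protein at the mRNA exit, and rps26l the ratio was 1.44, 1.37, 1.47 and 1.47 in the DMSO libraries, 1.43, 1.4998, 1.495 and 1.48 with GW9662 and 1.53, 1.46, 1.36 and 1.44 with rosiglitazone, with differences from DMSO of 0.042 (pooled SD 0.039, p = 0.20, adjusted p = 0.47) and 0.013 (pooled SD 0.058, p = 0.91, adjusted p = 0.91) by the same exact test. The copy rps26 had 827 ± 22.3 FPKM in DMSO, 942 ± 57.9 with GW9662 and 878 ± 116 with rosiglitazone (SD, n = 4), and rps26l had 576 ± 20.8 FPKM in DMSO, 638 ± 36.4 with GW9662 and 605 ± 54.0 with rosiglitazone (SD, n = 4). The -like gene rpl7l1, related to an assembly factor of the large subunit known from yeast, was listed far below rpl7, by 34.0 ± 1.82 fold in DMSO, 33.6 ± 1.48 fold with GW9662 and 31.9 ± 1.63 fold with rosiglitazone (SD, n = 4). Its own level was 65.9 ± 5.10 FPKM in DMSO, 67.3 ± 1.92 with GW9662 and 74.2 ± 6.08 with rosiglitazone (SD, n = 4). That of rpl7 was 2236 ± 74.8 FPKM in DMSO, 2259 ± 122 with GW9662 and 2370.04 ± 288 with rosiglitazone (SD, n = 4). For rps8a against rps8b the copy rps8a stood at 949 ± 47.0 FPKM in DMSO, 1037 ± 40.5 with GW9662 and 1037 ± 146 with rosiglitazone (SD, n = 4), whereas rps8b was near the limit of counting in each group, with 0.382, 1.39, 0.832 and 0.649 FPKM with GW9662 and 0.720, 0.436, 0.554 and 0.823 FPKM with rosiglitazone. The 4 -like copies together (rplp2l, rps26l, rpl22l1 and rpl7l1) had 0 called in each comparison and medians of 0.079 with GW9662 and 0.071 with rosiglitazone against DMSO. Of all genes tested, 36% were called with GW9662 against DMSO, 17% with rosiglitazone against DMSO and 30.5% between the compounds.

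**Figure D5:**
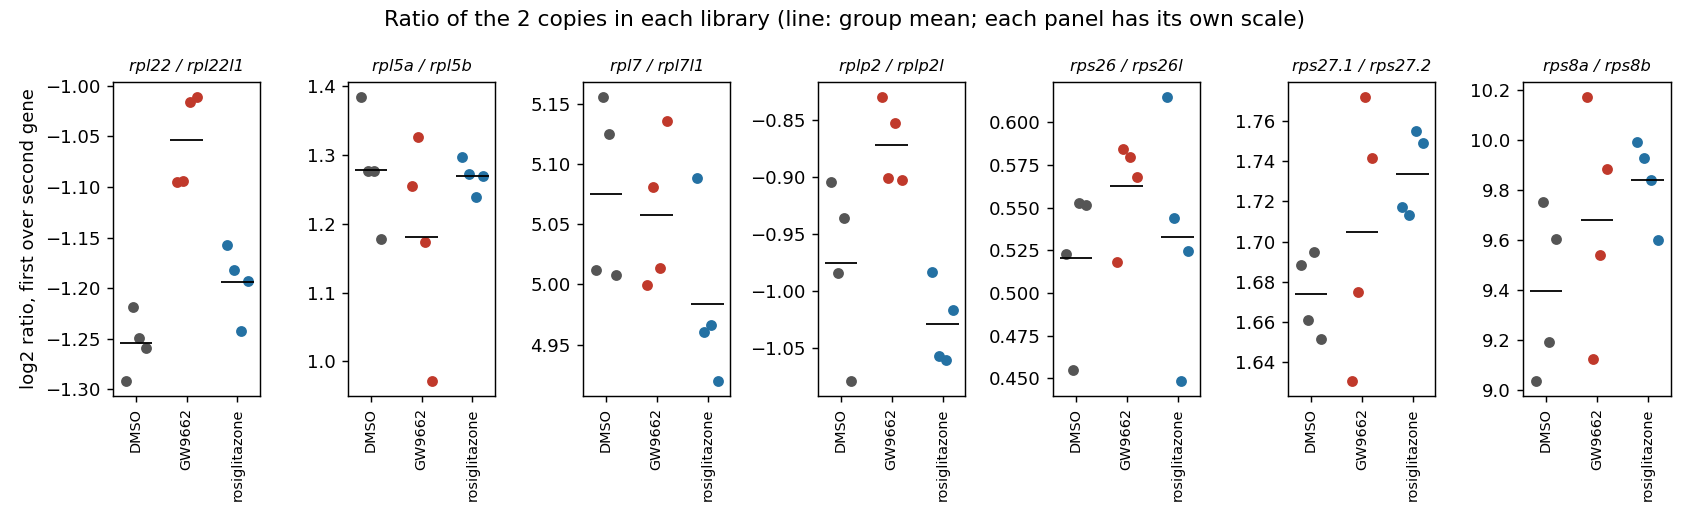
The log2 ratio of FPKM + 0.5 between the members of each of the 7 pairs, per library, with a line at the group mean; the vertical scale differs between panels. The GW9662 points of rpl22 over rpl22l1 and of rplp2 over rplp2l lie above the points of both other groups.

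In the genome, members lay on 24 chromosomes and were mostly scattered. Excluding the overlapping rpl26 rows, neighbours within 100000 bases were rplp2 and rps26l on chromosome 6, both on the reverse strand and 9.57 kb apart, and rpl3 and rpl27 on chromosome 3, both on the reverse strand and 22.6 kb apart. A snoRNA row lay inside 22 of the 82 members on the same strand (26.8%), with 52 such rows in all, against 63 of 13933 protein-coding genes tested (0.452%, which includes the members tested). The most were in rpl4, with 7, and rps7, rpl7a and rps3 held 4 each. These are annotation facts from the deposited table, and the levels of these short RNAs were not analysed here.

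Some ribosomal protein genes fell outside the symbol rule. The gene faua encodes a ribosomal protein made as a fusion with a ubiquitin-like sequence, and rack1 encodes a scaffold on the small subunit. The gene faua had 2033 ± 68.3 FPKM in DMSO, 2137 ± 189 with GW9662 and 2118 ± 247 with rosiglitazone (SD, n = 4). For rack1 it was 2273 ± 32.8 FPKM in DMSO, 2454 ± 149 with GW9662 and 2614 ± 195 with rosiglitazone (SD, n = 4). Of these 2, 0 were called in each comparison, where 36%, 17% and 30.5% of all genes tested were. At an unadjusted p under 0.05 (limma) rack1 was higher with rosiglitazone, where 4244 of all 14433 genes tested passed. The gene rps20 (FO704736.1) had 3419 ± 95.4 FPKM in DMSO, 3896 ± 237 with GW9662 and 3510.3 ± 518 with rosiglitazone (SD, n = 4), with a difference of 0.19, adjusted p = 0.12 with GW9662 (limma). Of the 4 rows that the reference list names as ribosomal protein genes 1 was called with GW9662 against DMSO, where 36% of all genes tested were. The row called was CABZ01079011.1, named rps27l, whose human counterpart is a p53 target. It read 32.7, 30.0, 27.7 and 33.2 FPKM in the DMSO libraries, 60.9, 52.9, 50.4 and 52.2 with GW9662 and 51.5, 40.3, 33.1 and 32.0 with rosiglitazone. The 4 GW9662 values were above the 4 DMSO values and overlapped rosiglitazone. The difference from DMSO was 0.80 ± 0.13 (SE), adjusted p = 0.00026 with GW9662 and 0.32, adjusted p = 0.11 with rosiglitazone (limma). Between the compounds this row was also called, higher with GW9662 by 0.48, adjusted p = 0.011 (limma). It was 1 of the 4 rows called there, where 30.5% of all genes tested were.

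Mitochondrial ribosomal protein genes build the separate ribosome of mitochondria, and those called with GW9662 were mostly lower. Of 68 tested from 74 listed, 1 was higher and 15 lower with GW9662 than with DMSO, a median of -0.12, and 0 were higher and 1 lower with rosiglitazone, a median of -0.002. Examples were mrpl16, from 23.5 ± 1.07 to 17.5 ± 1.20 FPKM (SD, n = 4; -0.41, adjusted p = 0.00024), and mrpl20, from 57.9 ± 2.50 to 46.9 ± 2.78 FPKM (-0.30, adjusted p = 0.0031, limma). The member that rose was mrpl58, a peptide release factor of the mitochondrial ribosome (0.42, adjusted p = 0.0072). In this list 23.5% were called with GW9662, where 36% of all genes tested were, and 1.47% with rosiglitazone, where 17% were.

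Ribosome assembly factors, which make and process ribosomal RNA and join it to ribosomal proteins in the nucleolus, were mostly called higher with both compounds. Of 49 tested, 35 were higher and 0 lower with GW9662, a median of 0.27, and 29 higher and 0 lower with rosiglitazone, a median of 0.23. These are 71.4% and 59.2% called, where 36% and 17% of all genes tested were. Estimates below 0 were 1 with GW9662, at -1.30 on the log2 scale, and 6 with rosiglitazone, the lowest at -1.60. None of the estimates below 0 was called. The RNA helicase gene ddx21 rose from 89.7 ± 2.32 to 180.5 ± 7.99 FPKM with GW9662 (1.005, adjusted p = 5.6e-08) and to 138 ± 14.1 FPKM with rosiglitazone (0.61, adjusted p = 2.7e-05). The RNA polymerase I subunit gene polr1a rose from 12.3 ± 0.740 to 16.7 ± 0.542 and 16.1 ± 0.498 FPKM (0.42, adjusted p = 2.9e-05 and 0.37, adjusted p = 0.00029), and nop58, a core protein of snoRNA particles, from 141 ± 5.90 to 176 ± 9.33 and 166 ± 11.01 FPKM (0.32, adjusted p = 0.00048 and 0.24, adjusted p = 0.010, limma, SD, n = 4).

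Translation factors, whose mRNAs are in part controlled like those of ribosomal proteins, gave 13 higher and 2 lower of 47 with GW9662, a median of 0.10, and 14 higher and 1 lower with rosiglitazone, a median of 0.14. Both come to 31.9% called, against 36% of all genes tested with GW9662 and 17% with rosiglitazone. The elongation factor gene eef1a1l1 rose from 3163 ± 37.0 to 4232 ± 159 FPKM with GW9662 (0.42, adjusted p = 7.7e-05) and to 3737 ± 196 FPKM with rosiglitazone (0.24, adjusted p = 0.012). The gene tpt1, whose product is not itself an initiation or elongation factor, rose from 1714 ± 28.5 to 2241 ± 109 and 2125 ± 106 FPKM (0.39, adjusted p = 0.00010 and 0.31, adjusted p = 0.0016, limma). The poly(A)-binding protein gene pabpc1b fell from 40.4 ± 1.2501 to 30.9 ± 2.79 and 31.7 ± 2.01 FPKM (-0.38, adjusted p = 0.00042 and -0.35, adjusted p = 0.0024, limma, SD, n = 4).

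Genes that restrain translation were mixed, with 6 higher and 1 lower of 15 with GW9662 and 5 higher and 2 lower with rosiglitazone, medians of 0.15 and 0.036. Both come to 46.7% called, against the same 36% and 17% of all genes tested. The sestrin gene sesn2, which restrains mTORC1 when amino acids are short, rose from 3.75 ± 0.542 to 9.37 ± 0.609 FPKM with GW9662 (1.22, adjusted p = 1.6e-06) and to 5.90 ± 0.779 FPKM with rosiglitazone (0.59, adjusted p = 0.0023). The gene eif4ebp3l, for a protein that holds back the cap-binding factor eIF4E, rose from 71.1 ± 6.54 to 108 ± 6.49 and 94.8 ± 6.60 FPKM (0.61, adjusted p = 1.7e-05 and 0.42, adjusted p = 0.0013). The kinase gene eef2k, whose product slows elongation, fell from 37.3 ± 1.75 to 22.8 ± 0.929 and 28.3 ± 1.91 FPKM (-0.70, adjusted p = 4.5e-07 and -0.39, adjusted p = 0.00028, limma, SD, n = 4). These data measure mRNA abundance, and translation itself was not measured.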

How the data were processed

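RNA from 12 libraries of whole zebrafish embryos was sequenced; reads were aligned with HISAT2 2.0.5 and counted with featureCounts 1.5.0-p3, per the submitters' processing notes, and the sources used here name no genome build. The deposited table held FPKM per gene and library as computed by the authors. The labels' protocol describes both a strand-marking and a non-marking library preparation, so reads of overlapping genes on opposite strands may not have been told apart. FPKM multiplied by gene length came out as whole fragments for 100% of values (tolerance 0.001 of a fragment), which gave 12.8 M to 22.7 M fragments a library.

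Genes that reached 1 FPKM in 4 or more libraries were tested (14433 of 31901) with limma 3.58.1 in R 4.3.3 on log2(FPKM + 0.5), in 1 fit over the 3 groups with a variance trend, two-sided, with Benjamini-Hochberg adjustment within each comparison and a threshold of 0.05. A fold on this scale understates changes of low genes. The fit was tested on simulated data in which each gene was drawn on its own, with the same spread in all groups. Shifts shared by many genes of a library, or a wider spread in exposed groups, were therefore not covered. Ratios of paralogues were tested by exact permutation over libraries (4 against 4, 70 arrangements), adjusted over 7 pairs, with Python 3.11.15, numpy 2.4.6, pandas 2.3.3 and scipy 1.17.1; figures used matplotlib 3.10.9. Groups come from the titles; the tag named batch, an hour post fertilisation that differs between all libraries and does not overlap between groups, could not enter a fit.

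Members and gene lists were chosen with earlier results of these data known. Genes were named by rule: in each comparison the 6 largest rises and 6 largest falls among members past the threshold with at least 2 FPKM in a group and groups wholly apart; all paralogue pairs; the stalk genes; rpl5a, rpl5b and rpl11; rplp0, rpl13a and rps18; and members under the filter. Other members named were chosen after their values were seen, as were the examples from other gene lists and the scalings to the median member and to library totals. Other pseudocounts, filters, scalings and fits were also tried, as was leaving out each library. Some genes are not reported here by name or drawn one by one; they stay in the counts, sums and medians.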

Additional observations from a re-analysis of the deposited data

Results flagged for a closer look

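The library values of members and their sums were screened for a library far from the other 3 of its group. Of 81 values screened 2 were flagged, where chance flags about 1 in 20 groups. The row ENSDARG00000101794, listed as rpl26 and named atp6v0e1 in the reference list, was at 9.195 FPKM in GW9662 replicate 2, below the other GW9662 libraries at 9.758 to 9.818 FPKM and above all 8 DMSO and rosiglitazone libraries. The gene rpl5b was at 844.0 FPKM in GW9662 replicate 4, above the others of its group at 632.2 to 646.7 FPKM. In that library 73 of 78 members lay above their group mean.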

How the results depend on the processing

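With GW9662 against DMSO, 2 members higher became 1 without a filter on low values, with equal medians of the genes tested or with the replicate block; 5 with a filter of at least 5 FPKM; 8 when scaled to the fragments of all other genes; 18 with voom on recovered fragments; 20 with a fit on the 2 groups compared; 30 with quantile normalization, which also gave 2 lower; and, as alternatives chosen after seeing the data, 14 relative to the median member and 12 with library totals. Leaving out each library gave 1 to 22. Under quantile normalization rpl7 reversed to -0.1126. With rosiglitazone against DMSO, 1 higher became 2 with a filter of at least 5 FPKM or with the replicate block, 27 with quantile normalization, 9 when scaled to all other genes and with voom, 0 relative to the median member (6 lower, median -0.0420) and 8 with library totals, and leaving out each library gave 0 to 6; rps23 was at -0.0821 relative to the median member, a scale that lowers each gene alike and left 18 of 78 estimates above 0. Between GW9662 and rosiglitazone, 1 higher and 1 lower became 11 and 9 with quantile normalization, 5 and 7 with voom, 23 and 0 relative to the median member, and lower alone became 3 when scaled to all other genes, 0 without a variance trend or with a fit on the 2 groups, 2 with the replicate block and 5 with library totals; leaving out each library gave 1 to 15 higher and 0 to 1 lower. Median differences without each library ran from 0.085 to 0.15, from 0.023 to 0.13 and from -0.032 to 0.081 in the 3 comparisons. Over these settings the share of all genes called ran from 20.9 to 44.7%, 8.56 to 23.6% and 17.1 to 38.2% in the 3 comparisons. The cause of these changes was not tested, except that the estimates are the same by construction in the replicate block, in the 2-group fits and, for a comparison it is not part of, without a library. Between same-numbered libraries of different groups the deviations correlated by -0.050 to 0.23, with 0.1 or less in at least 1 pair of each comparison. Of 4 numbers, 2, 1 and 1 correlated best with their own in the 3 comparisons. These correlations cannot show whether same-numbered libraries share a clutch or batch, and the main fit left them unpaired. The other pseudocounts changed no count of members called and no call of a paralogue ratio. Depth limits the rows under 1 FPKM, each with few fragments a library.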

Other observations

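Of the 82 rows, 21 overlap a protein-coding row of another gene, where reads may have been shared or left uncounted. The gene rida overlaps rpl30 on the same strand and rose from 29.8 ± 3.70 to 42.2 ± 3.96 FPKM with GW9662 (SD, n = 4; log2 0.50, adjusted p = 0.0049, limma), where rpl30 had 0.22, adjusted p = 0.17. The muscle gene pgam2 overlaps rpl17 on the opposite strand and fell from 46.3 ± 3.15 to 21.5 ± 2.82 FPKM (log2 -1.10, adjusted p = 1.1e-05), where rpl17 had 0.064, adjusted p = 0.46. The gene rab13 overlaps rps27.2 and had a difference of -0.42, adjusted p = 0.00018, where rps27.2 had 0.080, adjusted p = 0.45 (limma). The part of these overlaps in the members' levels was not tested.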
